A study of Mus musculus with 6 samples.

Results

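The genes described here encode the proteins of the cytosolic ribosome. Of 52459 gene rows in the deposited table of read counts, 80 were protein-coding rows whose symbol is Rpl or Rps followed by digits and at most 1 of the letters a, l or x, or is Rplp0, Rplp1, Rplp2 or Rpsa. These 80 rows comprised 49 genes of the large subunit and 31 of the small subunit. The choice used names and biotypes only, not measured values. The filter on low counts left 77 of the 80, 46 of the large and 31 of the small subunit, and values per gene below refer to those 77.

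The ribosome joins a small subunit, which holds the messenger RNA and reads its codons, to a large subunit, which forms the peptide bond. Each protein is normally needed once per particle, the stalk proteins being the exception, and many of the genes start transcription at a C followed by a run of pyrimidines, the terminal oligopyrimidine (TOP) tract through which mTOR and LARP1 adjust translation of the message. Erythroid progenitors depend strongly on ribosome supply: inherited loss of a single copy of one of these genes causes Diamond-Blackfan anaemia, a failure of red cell formation, and RPS14 is among the genes lost in the 5q- syndrome.

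RNA-seq libraries were made from megakaryocytic-erythroid progenitors (MEPs), marrow cells with megakaryocyte and red cell fate, 3 from wild-type mice (WT) and 3 from Tmprss6-/- mice (KO), a genotype that the study describes as a condition of iron deficiency. Tmprss6 encodes a liver protease that restrains hepcidin, the hormone that limits iron uptake. Every library came from cells pooled from 3 mice, so single animals cannot be compared, and strain, sex and age are not given in the labels. Replicates 1, 2 and 3 of each genotype are written WT 1 to WT 3 and KO 1 to KO 3, and a pair means the WT and KO libraries of the same number.

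Total counts ran from 13402209 to 22986837 per library. Tmprss6 had 5, 4 and 0 counts in WT and 0, 5 and 0 in KO, too few to check the genotype, as a count of 0 allows up to 3 counts. All 8 MEP marker genes passed the filter, and their summed level was 2265 to 4679 CPM (counts scaled to a common library size, with TMM factors). KO 2 stood apart: its summed CPM over 6 late erythroblast markers was 4766, against 82.0 to 300.8 in the other 5 libraries. That sum was 121.8, 137.2 and 82.0 in WT 1 to WT 3, 257.9 in KO 1 and 300.8 in KO 3. All 6 of these markers were higher in KO in pairs 1 and 3, by medians of 1.02 and 1.74 on the log2 scale. The KO 2 sum over 5 eosinophil and basophil markers was 6334 against 35.7 to 658, over 5 neutrophil markers 2606 against 58.6 to 283.2, and over 5 macrophage markers 1580 against 21.8 to 138.2. The sum over 5 lymphoid and plasma cell markers was 1182 in KO 2 and 1074 in KO 3, against 23.2 to 147.4 elsewhere, and none of these markers was at 0 in all libraries. Xist had 351 and 175 counts in WT 3 and KO 3 and at most 1 in the other 4 libraries, while the Y-linked Ddx3y had at most 1 in those 2 and at least 872 elsewhere. Replicate number therefore went together with the sex of the pools, and the 2 cannot be told apart from whatever else the numbers stand for.

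Start sites are shown for 5 members whose levels are described below, to show how pyrimidine runs differ in length and place between them. The 30 bases run from 15 before to 15 from the start of an annotated RefSeq transcript in GRCm38.p6, 5′ to 3′ on the gene's own strand, with the longest unbroken run of C and T among the printed bases in capitals.
Rpl34, upstream start (chr3:130730384-130730413, minus strand): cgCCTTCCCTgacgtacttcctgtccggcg
Rpl34, downstream start (chr3:130730323-130730352, minus strand): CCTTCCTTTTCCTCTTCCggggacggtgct
Rps18 (chr17:33955651-33955680, minus strand): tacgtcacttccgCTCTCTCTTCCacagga
Rpl4 (chr9:64173372-64173401, plus strand): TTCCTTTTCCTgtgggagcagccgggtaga
Rps27 (chr3:90213634-90213663, minus strand): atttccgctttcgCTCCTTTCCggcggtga
Rps27l (chr9:66946071-66946100, plus strand): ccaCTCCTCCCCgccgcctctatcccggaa
The upstream start of Rpl34 is the gene's start in the deposited table, and Rps27l has a further annotated start that is not printed. RefSeq start-site entries were found for 60 of the 80 members. A run of at least 8 pyrimidines within 25 bases either side of the start was present in 32 of the 60 (53.3%), against 22.3% of 27025 genes with an entry. CGGAAG, the core of the site bound by ETS-family factors, was searched on both strands from 250 bases before to 50 bases after the start, a span that contains the shorter one searched for pyrimidines. It was present in 41 of the 60 (68.3%), against 18.8% of those genes. These are matches of letters and were not tested as sites. The 31 filtered members with a run had a median KO minus WT difference in pair 2 of -0.76 (log2 CPM) and the 26 without a run had -0.71. Both medians lay well inside the range among members given below.

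Together the 80 genes took 5.98%, 4.64% and 2.54% of all counts in WT 1, 2 and 3, and 5.58%, 2.68% and 2.55% in KO 1, 2 and 3. Both replicates 1 were high and both replicates 3 were low, whereas WT 2 lay between them and KO 2 lay with the replicates 3, so that the genotypes overlapped. The mean share was 4.39% ± 1.74 in WT and 3.61% ± 1.72 in KO (SD, n = 3 each). KO minus WT was -0.40 percentage points in pair 1, -1.96 in pair 2 and 0.016 in pair 3. The spread between replicate numbers within 1 genotype thus exceeded the difference of the genotype means.

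The large subunit genes took 3.12%, 2.56% and 1.47% of counts in WT and 2.95%, 1.46% and 1.48% in KO. For the small subunit genes the shares were 2.87%, 2.08% and 1.06% in WT and 2.64%, 1.21% and 1.08% in KO. In both subunits WT 1 was highest, followed by KO 1 and WT 2. KO 2 was the lowest library for the large subunit genes, though close to both replicates 3, but lay above both replicates 3 for the small subunit genes. The ratio of large to small subunit counts was 1.09, 1.23 and 1.38 in WT and 1.12, 1.21 and 1.37 in KO, so libraries of the same number lay closer to each other than to any other library. On the log2 scale, the mean level of the 46 large subunit genes minus that of the 31 small subunit genes was -0.75, -0.63 and -0.52 in WT and -0.74, -0.66 and -0.55 in KO. The difference of the genotype means was -0.019, against SDs of 0.112 in WT and 0.095 in KO. The balance of the subunits therefore moved with replicate number in both genotypes, and no difference between genotypes beyond the replicate spread was seen.

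**Figure D1:**
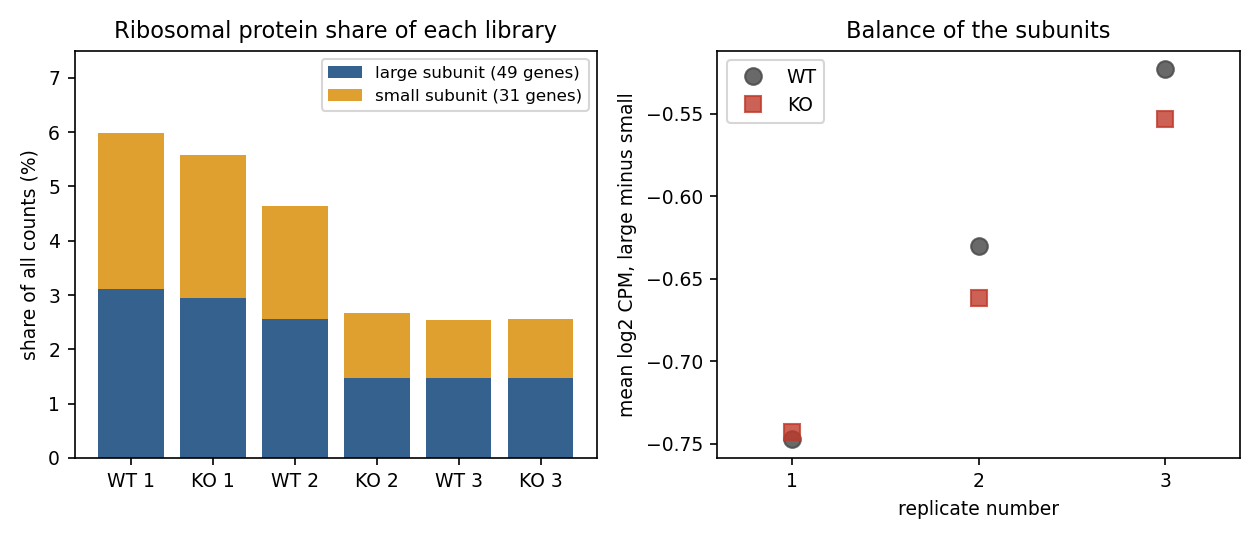
Left, share of all counts (%) taken by the 49 large and 31 small subunit genes in each of the 6 libraries, stacked and ordered by replicate number. Right, mean log2 CPM of the filtered large subunit genes minus that of the small subunit genes, 1 point per library; WT and KO of the same number lie side by side and the balance runs from -0.75 in WT 1 to -0.52 in WT 3.

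In the comparison of genotypes over all 6 libraries, 0 of the 77 genes passed an adjusted p of 0.05 in edgeR's quasi-likelihood test, as did 0 of all 13453 genes tested (0%). This fit took no account of replicate number, so its SEs include the spread between replicate numbers. No ribosomal protein gene had an unadjusted p under 0.05 in it, against 234 of all genes, and DESeq2 and limma voom also called 0 of the 77. With replicate number as a block, 2 of 77 had an unadjusted p under 0.05 by the same edgeR test, against 476 of all genes. Both were lower in KO, and 0 genes passed the adjusted threshold. Without the block, all 77 log2 fold changes (KO over WT) were below 0, with a median of -0.21, against 6827 of 13453 and a median of -0.005 over all genes. The medians of the large and small subunit genes were -0.20 and -0.22. That common sign changed as single libraries were left out of the fit without the block. Without KO 2, 40 of 77 were below 0 and the median was -0.01. Without KO 3, 33 of 77 were below 0, and without WT 1, 15 of 77 with a median of 0.18. Without KO 1 the median was -0.84 and without WT 3 it was -0.50. Each such fit also left the replicate numbers unequal between the genotypes, so these values do not show which library the sign rested on. With the block over 6 libraries, all 77 were below 0 with a median of -0.23, against 7212 of 13453 genes and a median of -0.023.

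The 10 members of smallest p in the fit without the block were Rpl24, Rpl3, Rpsa, Rps2, Rpl13, Rps27, Rpl13a, Rpl22, Rpl7 and Rpl23a. Rpl24, which bridges the subunits, had 1.52, 1.38 and 0.783 CPM in WT and 0.673, 0.684 and 0.367 in KO. It was the 1 member of 77 (1.30%) whose KO libraries all lay below all WT libraries, a pattern seen in 1.75% of all genes. Its row held only 33, 20 and 11 counts in WT and 11, 11 and 5 in KO, its log2 fold change was -1.08 (SE 0.57), and its unadjusted p was 0.0966. Rpsa, the laminin-receptor protein of the small subunit, had 1582, 1659 and 620 CPM in WT and 1608, 693 and 638 in KO. The low values of Rpsa were those of both replicates 3 and of KO 2. Its log2 fold change of -0.39 was smaller than its SE of 0.52 in the fit without the block. With the block the change was -0.39 (SE 0.30, unadjusted p = 0.240 by edgeR's quasi-likelihood test).

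Within the pairs, which allow no test with 1 library a side, the difference lay in pair 2. In pair 1, 29 members were higher and 48 lower in KO, with a median log2 difference of -0.043, and in pair 3, 52 were higher and 25 lower, with a median of 0.052. In pair 2 all 77 were lower in KO, by a median of -0.76, a KO level of 0.592 of WT, while the median over all genes in that pair was -0.002. Pair 2 differences ran from -1.58 for Rpl3 to -0.24 for Rps29. The large subunit median was -0.79 and the small subunit median -0.72 in pair 2, so both subunits shared the offset. KO 2 is the library that carried the transcripts of other blood cells given above, and the part of those cells in this offset was not tested. In such bulk libraries, fewer cells of a type and less RNA per cell cannot be told apart.

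**Figure D2:**
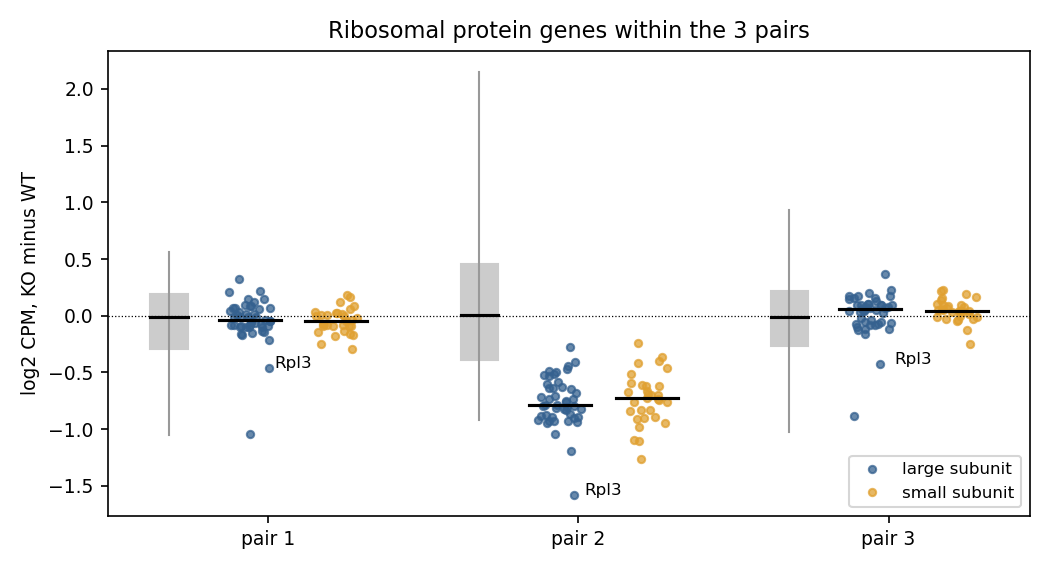
KO minus WT log2 CPM of each filtered ribosomal protein gene in the 3 pairs, blue for 46 large and yellow for 31 small subunit genes, with black lines at the medians. Grey boxes give the quartiles of the other genes and grey lines their percentiles 5 to 95; the points surround 0 in pairs 1 and 3 and all lie below 0 in pair 2.

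The classes of ribosomal proteins followed this pattern. Their pair 2 medians ran from -0.94 for Rps2 and Rps3 of the messenger RNA channel to -0.63 for the 4 members on the X chromosome. The quartiles of all 77 members in that pair were -0.89 and -0.62. Rplp0, Rplp1 and Rplp2 form the stalk that recruits elongation factors, and Rplp0 had 2667, 2376 and 1384 CPM in WT and 2850, 1246 and 1441 in KO. The stalk medians were -0.01, -0.74 and 0.079 in pairs 1, 2 and 3. Rpl5 and Rpl11, which carry 5S rRNA into the large subunit and bind MDM2 when ribosome assembly is disturbed, had pair medians of 0.014, -0.85 and 0.211. Rpl5 stood at 1404, 878 and 385 CPM in WT and 1421, 477 and 498 in KO, so that its replicates 1 agreed closely and KO 3 lay above WT 3. Its pair 3 difference of 0.37 was the highest of the 77.

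All 19 members named here for Diamond-Blackfan anaemia had log2 fold changes below 0 over 6 libraries, as all other members did, and 0 of 19 were called. Rps19, the most often mutated of them, had 2534, 1495 and 927 CPM in WT and 2374, 795 and 849 in KO, a log2 fold change of -0.30 (SE 0.55). Rps14, the gene of the 5q- syndrome, had 2041, 1087 and 587 CPM in WT and 1934, 563 and 573 in KO, a log2 fold change of -0.27 (SE 0.63). With replicate number as a block over 6 libraries, the values were -0.38 (SE 0.23) for Rps19 and -0.35 (SE 0.24) for Rps14. In both genes the replicate numbers were further apart than the genotypes in pairs 1 and 3. Rps26, which lies at the messenger RNA exit of the small subunit, varied less, with 257, 193 and 149 CPM in WT and 273, 135 and 157 in KO.

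Restricting the comparison to pairs 1 and 3, with the replicate number as a block, left 1 of 77 members past an adjusted p of 0.05 in edgeR's quasi-likelihood test, which was lower in KO, against 0.604% of 13572 genes called lower and 0.258% called higher. Counting the called gene, 45 members lay above 0 and 32 below, from -1.13 for Rpl24 to 0.26 for Rpl23, with a median of 0.015 and subunit medians of 0.019 (large) and 0.0004 (small). Rps27 and Rpl23 had unadjusted p of 0.0244 and 0.0232, with log2 fold changes of -0.25 and 0.26, and did not pass the adjusted threshold. With KO 2 alone left out and the block kept, again 1 of 77 was called lower, against 0.642% of 13703 genes.

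The called gene was Rpl3, a large subunit protein near the peptidyl transferase centre. It had 2080, 1735 and 991 CPM in WT and 1509, 582 and 738 in KO, and was lower in KO in each of the 3 pairs, by -0.46, -1.58 and -0.43 on the log2 scale. In pairs 1 and 3 its log2 fold change was -0.45 (SE 0.089, adjusted p = 0.0268 by edgeR's quasi-likelihood test with the block), and without KO 2 in the 5-library fit the adjusted p was 0.0166. Over all 6 libraries without the block it was not called, with a log2 fold change of -0.76 (SE 0.46), and its genotypes overlapped. With the block over 6 libraries it was also not called, at -0.82 (SE 0.28). The fit of pairs 1 and 3 used 4 libraries and was chosen with the content of KO 2 known. Cell type markers also differed in that fit. In KO, 4 of 6 late erythroblast and 1 of 5 lymphoid and plasma cell markers were called higher, against 0.258% of all genes. Called lower were 4 of 5 eosinophil and basophil and 2 of 5 neutrophil markers, against 0.604%. The part of cell content in the Rpl3 call was not tested.

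Rpl3 has a named processed pseudogene, Rpl3-ps1 (chrX:13202571-13203780), whose row moved the other way. Rpl3-ps1 had 71.8, 71.4 and 28.2 CPM in WT and 153, 72.2 and 94.0 in KO, a log2 fold change of 1.39 in pairs 1 and 3 (SE 0.15, adjusted p = 1.00e-04 by the same edgeR fit). It was higher in KO in pairs 1 and 3 and nearly level in pair 2, where the difference was 0.017. In pair 2, however, Rpl3 differed by -1.58 and the 77 members by a median of -0.76. Relative to Rpl3, the Rpl3-ps1 row was therefore higher in KO in each pair. In pair 2 the counts of Rpl3-ps1 and Rpl3 were 1036 and 25174 in WT 2, and 1161 and 9354 in KO 2. When the rows of Rpl3 and its named pseudogenes were summed, the log2 fold change of Rpl3 was -0.34 (SE 0.090) and its adjusted p 0.077 by edgeR, so the call was lost. How multi-mapping reads were counted is not stated in the sources used here, and the Rpl3 call therefore depends on how reads were divided between these rows.

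**Figure D3:**
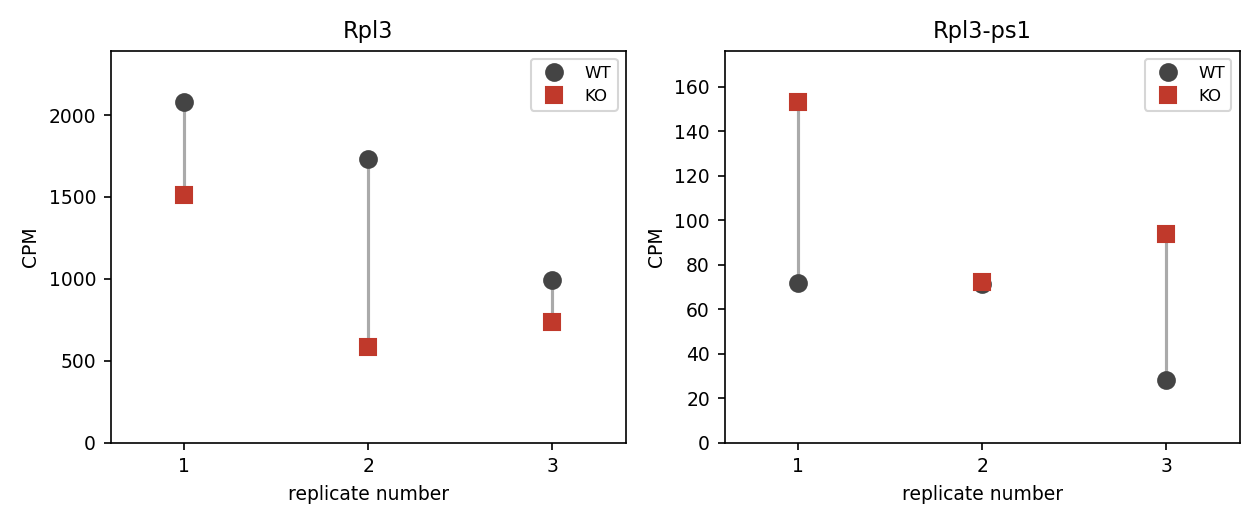
CPM of Rpl3 (left) and of the pseudogene row Rpl3-ps1 (right) in each library by replicate number, with WT and KO of a number joined by a line. Rpl3 was lower in KO in all 3 pairs, while Rpl3-ps1 was higher in KO in pairs 1 and 3.

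Rpl3 lies on the chromosome of the knocked-out gene. The deposited table places it at chr15:80077794-80091868, 1.61 Mb from Tmprss6 at chr15:78439668-78468634. Rpl8, on the other side of Tmprss6 and 1.53 Mb away, had 702, 764 and 373 CPM in WT and 775, 372 and 438 in KO, and its log2 fold change in pairs 1 and 3 was 0.18 (adjusted p = 0.445 by edgeR). Rpl30 and Rpl37, 44 and 73.3 Mb from Tmprss6, had 0.081 and 0.015. Of the 4 members on this chromosome, Rpl3 alone was called. Between Tmprss6 and Rpl3, Cbx7, a polycomb chromodomain gene 107 kb from Rpl3, fell by 1.84 on the log2 scale in KO in the same fit (adjusted p = 0.0158 by edgeR). Apobec3, also between them and 1.42 Mb from Tmprss6, had a log2 fold change of -1.41 (adjusted p = 6.13e-05 by edgeR).

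The level of the ribosomal protein genes differed much more by replicate number. In the block fit of all 6 libraries, a comparison added after the values were seen, 65 of 77 members were higher in replicates 1 than in replicates 3 by edgeR's quasi-likelihood test (adjusted p under 0.05), against 13.6% of all genes, and 0 were lower. The median was 1.41 on the log2 scale, 2.66-fold, and 36 of 46 large and 29 of 31 small subunit genes were called. In pairs 1 and 3 alone 76 of 77 were called higher, all but Rpl24, against 27% of all genes. The calls depended on the libraries: without WT 3 they fell to 0 of 77 (0.0212% of all genes), without KO 1 to 7 (1.62%), without KO 3 to 9 (0.897%) and without WT 1 to 46 (3.64%). Without WT 2 there were 75 (24%) and without KO 2 there were 76 (26.4%). Over these 6 fits the median ran from 1.22 to 1.65, and at least 74 of 77 members were above 0. Other measures moved with replicate number too. Over 5 eosinophil and basophil markers, all 5 were higher in replicates 1, by a median of 4.31, with summed CPM of 658 and 208.3 in replicates 1 and 102.3 and 35.7 in replicates 3. Of 8 MEP markers 6 were lower in replicates 1, with summed CPM of 2265 and 2473 in replicates 1 and 4679 and 4103 in replicates 3. Mitochondrial genes took 0.709% and 0.566% of counts in replicates 1 and 0.208% and 0.205% in replicates 3, and the part of these measures in the result was not tested.

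The small subunit genes had a larger median difference between replicates 1 and 3 (1.56) than the large subunit genes (1.28), which is the change of balance described above. Rpl34, a large subunit protein, lay at the upper end, with 831, 365 and 172 CPM in WT and 782, 234 and 193 in KO, a 4.40-fold difference between replicates 1 and 3. Rpl4, which lines the tunnel of the nascent chain, lay at the lower end, with 1548, 1775 and 1390 CPM in WT and 1801, 996 and 1465 in KO, a 1.18-fold difference. The differences of Rps2 and Rpl28 were 1.26-fold and 1.33-fold. Rpl24, Rps2 and Rpl4 were the 3 members least like the rest across the 6 libraries.

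Across libraries the members otherwise moved almost as one. The median correlation of log2 CPM between pairs of members over the 6 libraries was 0.970 (2926 pairs of genes), against 0.949 for 74 mitochondrial ribosomal protein genes and 0.682 for 21 translation factors. These correlations run over libraries that share depth, replicate number and cell content, and are a description only. The correlation with the mean of the members was 0.60 for Rpl24, 0.65 for Rps2 and 0.65 for Rpl4.

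Ribosomal protein messages are short, and the difference between replicate numbers varied with transcript length over the whole transcriptome. The 58 members under 1000 nt had a median difference, replicates 1 minus replicates 3, of 1.46 (log2 CPM, quartiles 1.22 and 1.76). Other genes under 1000 nt with at least 100 CPM had 1.37 (quartiles 0.89 and 1.66, 249 genes), which overlapped the members widely. At 1000 to 2000 nt the 16 members had 1.18 and 743 other genes of at least 100 CPM had 0.63. The few members with longer principal annotated transcripts lay above the other genes of that length. The 2 of 2000 to 4000 nt, Rpl5 and Rps20, had 1.48 against -0.26, and Rps15a, the 1 over 4000 nt, had 1.79 against -0.90, on the same basis. Rps20 and Rps15a had only 80.6 and 55.1 CPM per kilobase of that transcript in WT, ranks 73 and 74 of the 77. Whether the annotated lengths are those of the expressed messages was not tested. The correlation of the difference with log2 length was -0.59 across 13366 other genes and -0.28 across the 77 members, where genes are not independent replicates. In pair 2 the members under 1000 nt had a median KO minus WT difference of -0.72 and the other genes under 1000 nt -0.40. Whether length accounts for these differences was not tested.

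**Figure D4:**
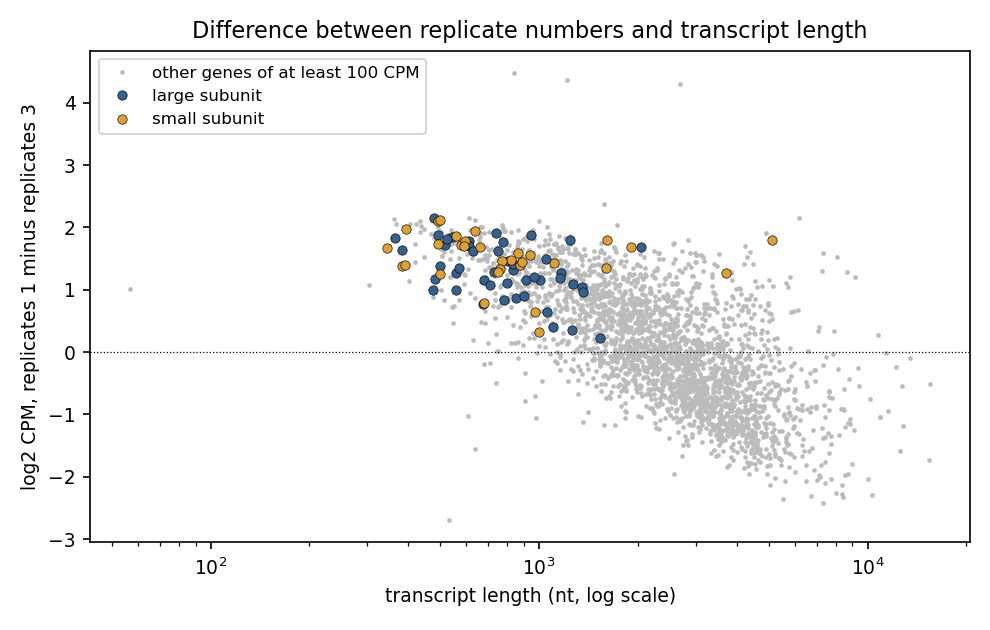
Log2 CPM in replicates 1 minus that in replicates 3 against the length of the principal annotated transcript in nucleotides (log scale), for large (blue) and small (yellow) subunit genes and for other genes of at least 100 CPM (grey). The ribosomal protein genes all lie above 0. The 58 under 1000 nt lie among other short genes, those that are longer tend to lie above other genes of their length, and the grey points fall with length.

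Other translation genes gave the same picture with more variety. Of 21 translation factors with TOP messages, 0 were called between genotypes, 17 had log2 fold changes below 0, and their pair medians were 0.088, -0.66 and 0.155. Between replicates 1 and 3, 13 were called higher and 3 lower, against 13.6% and 16.5% of all genes. The 3 lower were Eef2, the translocation factor, Eif4b, a helicase cofactor, and Pabpc1, the poly(A)-binding protein, whose CPM ran from 262 in WT 1 to 699 in WT 3 and from 259 in KO 1 to 679 in KO 3. Of 74 mitochondrial ribosomal protein genes tested, 0 were called between genotypes, and their pair medians were 0.060, -0.50 and 0.163, while 58 were higher and 0 lower in replicates 1 than in replicates 3. Mtor, Rptor, Eif4ebp2, Larp1 and Myc, 5 of 8 genes that control ribosome production, were called lower in replicates 1 than in replicates 3, against 16.5% of all genes, and 0 of the 8 were called between genotypes. Polr1b, Ubtf and Rrn3, 3 of 4 rRNA transcription genes, were also called lower in replicates 1. Larp1 has a transcript of 6617 nt, Polr1b 3998, Rrn3 3582 and Myc 1365. Other genes of at least 100 CPM had medians of -0.90 over 4000 nt, -0.26 at 2000 to 4000 nt and 0.63 at 1000 to 2000 nt. The part of length in these calls was not tested.

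Levels between genes are given per length, as CPM per kilobase of the principal GENCODE M21 transcript, averaged over WT. The 3 highest were Rps18 (2579), Rps19 (2135) and Rps14 (2074), all of the small subunit. The order varied by library: Rps18 was highest in replicates 1 and 2 of both genotypes, but the large subunit gene Rpl13 was highest in both replicates 3, at 1380 CPM per kilobase in WT 3 and 1310 in KO 3. The 3 lowest were Rpl24 (1.81), Rpl13a (22.8) and Rpl23a (37.5), all of the large subunit. Rps15a and Rps20 also ranked low, but their principal transcripts, 5130 and 3706 nt, are much longer than the median of 761 nt, which lowers a level per length. Proteins present once per ribosome thus had rows that differed by far more than any difference between samples. Rpl23a has 14 named pseudogene rows, whose counts came to 26.2% of its own, and Rpl13a has 1, at 7.19%. Whether reads of Rpl24, Rpl13a and Rpl23a were placed elsewhere was not tested.

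Of the paralogs in the rule, Rpl10l, Rpl39l and Rpl3l were near the detection floor, and Rps27l was not. Rpl10l, the testis form of Rpl10, had 0 counts in all 6 libraries, which allows up to 3 counts per library, or 0.131 to 0.224 CPM at the unscaled totals. Rpl39l had 11, 2 and 5 counts in WT and 16, 6 and 4 in KO, and Rpl3l, the muscle form of Rpl3, had 24, 5 and 2 in WT and 9, 10 and 0 in KO. Rps27l, the p53-inducible paralog of Rps27, had 941, 363 and 199 CPM in WT and 939, 282 and 233 in KO. Rps27 had 574, 346 and 181 CPM in WT and 483, 194 and 152 in KO. Per length the WT means of Rps27l and Rps27 were close, at 1004 and 1064 CPM per kilobase. By library, Rps27l and Rps27 stood at 1886 and 1664 CPM per kilobase in WT 1, 727 and 1004 in WT 2, and 398 and 525 in WT 3. In KO 1 they stood at 1882 and 1399, in KO 2 both at 564, and in KO 3 at 467 and 442. Neither gene was therefore the higher throughout, and in neither was a difference between genotypes called.

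The 4 members on the X chromosome, Rpl10, Rpl36a, Rpl39 and Rps4x, showed 0 calls between genotypes. All 4 had higher levels in replicates 1 than in replicates 3, the female pools, as all 77 members did. In the 6-library block fit 3 of 4 were called higher, against 65 of 77 members and 13.6% of all genes. Rps4x had 673, 689 and 430 CPM in WT and 756, 448 and 479 in KO and was the 1 not called in that fit. It was called in pairs 1 and 3 alone.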

How the data were processed

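Read counts per Ensembl gene and library were deposited by the authors as whole numbers with no scaling. Per the labels' protocols, RNA of sorted cells (RNeasy) went through SMART-Seq v4 amplification and Nextera XT preparation, which does not mark strand, so overlapping and antisense genes share reads. The submitters' processing notes name FastQC 0.11.5, STAR 2.5.3a, edgeR and the builds GRCm38.p3 and GRCh38.p3. No source used here gives the read counter or its treatment of multi-mapping reads. Coordinates are the deposited ones, and those of 72 of 80 members equal GENCODE M21, which gave transcript lengths. Genes were filtered with filterByExpr (minimum count 10, minimum total 15) and tested with edgeR 4.0.16 (quasi-likelihood, TMM, two-sided, Benjamini-Hochberg over all genes, threshold 0.05) in R 4.3.3. DESeq2 1.42.0, limma 3.58.1 voom, other scalings and filters, left-out libraries and summed pseudogene rows were alternatives. CPM use TMM-scaled sizes and log2 CPM a prior count of 2. Fits were tested on simulated data. The correlation of deviations from group means was 0.53, 0.16 and 0.63 for replicate numbers 1, 2 and 3. Each was above 0.1, so the numbers were used for the pairs and for the block, while the main genotype fit took no block. Correlations between unlike numbers are not given here, so these values do not show that like numbers match best. The labels do not say what the numbers stand for. Members, lists and named genes were chosen with earlier results of these data known. Named were the 10 members of smallest p, members called in pairs 1 and 3, the 3 highest and 3 lowest, filtered-out members, paralogs, disease genes, stalk proteins, Rpsa and Rps27a. Rpl4, Rpl34, Rpl28, Rpl8, Rpl30, Rpl37, Rpl23, Cbx7 and Apobec3 were named after their values were seen. The values of 1 member are not reported here. p-values measure the spread between these pools.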

Additional observations from a re-analysis of the deposited data

How the results depend on the processing

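The 77 genes gave 0 calls between genotypes under every scaling, tool and filter run on 6 libraries, with each library left out without a block, and with the replicate block on 6 libraries, where the count was 0. Their median log2 fold change was -0.54 with limma voom quality weights, against -0.21. Exactly 1, Rpl3, was called in pairs 1 and 3 with the replicate block, also with legacy=FALSE, and without KO 2 with the block; with pseudogene rows summed in pairs 1 and 3 it was 0. Leaving out each library in turn without a block moved the median log2 fold change between -0.84 and 0.18, and also left the replicate numbers unequal between genotypes. In the block fit, leaving out each library moved the count of members called higher in replicates 1 than in replicates 3 between 0 and 76. Without WT 3 that count was 0, without KO 1 7 and without KO 3 9, and the cause was not tested. The subunit balance between genotypes ranged from -0.076 to 0.036 over its alternatives and stayed within the replicate spread. Among 20 named members, 67 of 440 combinations of gene and setting changed sign, in 15 members and 8 settings, each leaving out libraries. The depth limits Rpl24, Rpl39l, Rpl3l and Rpl10l most.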

Other observations

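A group of 7 ribosomal protein or ribosome-associated genes fell outside the naming rule, and 0 were called between genotypes. Rack1, the scaffold on the head of the small subunit, had 1938, 1451 and 707 CPM in WT and 2206, 821 and 877 in KO. Rps3a1, a small subunit protein, had 1174, 1081 and 519 CPM in WT and 1091, 557 and 544 in KO. Fau, whose product is cleaved into a small subunit protein, had 301, 199 and 110 CPM in WT and 340, 126 and 110 in KO. In each of the 3 genes replicates 3 and KO 2 were low. Of the 7, 6 were called higher in replicates 1 than in replicates 3 by edgeR's quasi-likelihood test in the block fit, against 13.6% of all genes. Rpl36al was the exception, at 1.86 to 5.58 CPM. Rpl6l and Rps4l fit the naming pattern but carry pseudogene biotypes, and had 36 to 125 and 120 to 282 counts.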
